A study of Mus musculus with 16 samples.

Results

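Transcripts of lipid droplet coat proteins and of the enzymes that release fatty acids from the droplet were examined in mouse quadriceps muscle. The 9 genes were Plin2, Plin3, Plin4 and Plin5 (coats), Pnpla2, Abhd5 and G0s2 (the first lipase, its co-activator and its inhibitor), and Lipe and Mgll (the lipases that follow). They were chosen by symbol from the 23970 gene symbols of the deposited expression table. All 9 were present, each as a single entry, none was listed at 0 FPKM in any library, and all 9 passed the filter on low values.

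RNA-seq was performed on quadriceps from wild type male C57BL/6NTac mice aged 16 weeks, in 4 groups of 4 animals, 16 libraries in all. Mice ate a control diet (CON, 10% of kcal from fat) or a high fat diet (HFD, 60% of kcal from fat) for 10 weeks. Muscle came from mice at rest (groups CON-pre, HFD-pre) or from mice sampled 3 h after a run to exhaustion on a treadmill (groups CON-post, HFD-post). Exercised mice were fasted before the run and had water but no food after it. The groups at rest went through the same treadmill acclimatization and the same fasting period, so they were not fed controls. An effect of fasting on these transcripts was not tested. The animals before and after exercise were different mice, so no change within an animal was measured, and all groups share the strain and genotype. Expression is given in FPKM (fragments of a transcript scaled by its length and by the mapped fragments of the library), so levels can be set side by side between genes. The number of reads behind a value is unknown from FPKM.

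Muscle fibres keep triacylglycerol in droplets whose surface carries perilipins, which limit or direct the access of lipases. Adipose triglyceride lipase (Pnpla2) takes the first fatty acid, and it is switched on by CGI-58 (Abhd5) and held back by G0S2. Hormone-sensitive lipase (Lipe) cleaves the diacylglycerol, monoglyceride lipase (Mgll) the monoacylglycerol, and in oxidative muscle perilipin 5 is known for tethering droplets to mitochondria.

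Plin5, Plin4 and Plin3 lie on the minus strand of chromosome 17 in GRCm38.p6. Plin4 (56100587 to 56109948) and Plin5 (56111597 to 56117606) are close neighbours, and Plin3 (56278962 to 56290511) lies farther along. Pnpla2 is on chromosome 7 (141455188 to 141460743, plus strand), and G0s2 is a short gene on chromosome 1 (193272160 to 193273188, minus strand). The promoters shown are those of the 4 genes that passed the test for exercise when averaged over both diets, of which G0s2 passed in HFD and not in CON. Each window runs from 250 bases before to 50 bases after a transcription start in RefSeq (GRCm38.p6), 5′ to 3′ on the strand of the gene. Of Plin5, which has a second window starting farther downstream, the upstream window is shown. Capitals mark 4 motifs, each searched on both strands. The half-site bound by PPAR and related nuclear receptors was searched as AGGTCA. The half-site of cAMP response elements was searched as TGACG. The GC box was searched as GGGCGG, and the CCAAT box by the letters of its name.
Plin5, chr17:56117499-56117798, minus strand: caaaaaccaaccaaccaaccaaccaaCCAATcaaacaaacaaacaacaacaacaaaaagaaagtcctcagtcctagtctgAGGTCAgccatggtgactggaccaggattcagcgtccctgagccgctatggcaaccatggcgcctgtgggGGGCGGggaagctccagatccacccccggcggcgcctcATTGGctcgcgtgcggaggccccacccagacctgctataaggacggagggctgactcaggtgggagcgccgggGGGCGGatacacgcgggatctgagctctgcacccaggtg
Plin4, chr17:56109733-56110032, minus strand: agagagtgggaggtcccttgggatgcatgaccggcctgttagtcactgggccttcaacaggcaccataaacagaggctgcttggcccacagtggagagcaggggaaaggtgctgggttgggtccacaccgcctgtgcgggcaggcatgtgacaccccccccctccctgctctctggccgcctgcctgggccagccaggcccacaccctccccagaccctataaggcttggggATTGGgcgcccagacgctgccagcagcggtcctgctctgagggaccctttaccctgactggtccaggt
Pnpla2, chr7:141454938-141455237, plus strand: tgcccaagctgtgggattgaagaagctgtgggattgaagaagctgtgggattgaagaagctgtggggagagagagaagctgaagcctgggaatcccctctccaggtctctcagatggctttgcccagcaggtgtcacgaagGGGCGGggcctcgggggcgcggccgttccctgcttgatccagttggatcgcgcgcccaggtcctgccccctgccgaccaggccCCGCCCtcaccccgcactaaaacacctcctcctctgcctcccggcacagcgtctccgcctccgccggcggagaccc
G0s2, chr1:193273139-193273438, minus strand: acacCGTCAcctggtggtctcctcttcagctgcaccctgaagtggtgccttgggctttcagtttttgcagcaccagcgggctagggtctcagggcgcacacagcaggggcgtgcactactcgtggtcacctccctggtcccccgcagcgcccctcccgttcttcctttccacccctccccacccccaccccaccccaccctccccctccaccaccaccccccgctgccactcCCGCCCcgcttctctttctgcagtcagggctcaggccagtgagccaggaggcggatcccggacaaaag

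The Plin5 window held AGGTCA with its first base at -170 from the start, and the second Plin5 window (chr17:56117249-56117548) held it at position 14. Among the other members Plin2 and Abhd5 held the half-site on the opposite strand, at -218 and -69. In all 32851 RefSeq promoter windows of this length the half-site occurred in 16.3%. The spaced repeat AGGNCANAGGNCA (a DR1, which can contain the half-site) occurred in 0.381% of windows and in none of the 12 windows of the 9 genes. The TATAAA motif was found in none of the 12 windows either, against 13.6% of all. The CCAAT box occurred in 37.4%, the GC box in 35.7%, the CRE half-site in 20.8% and the palindrome CACGTG in 7.15% of all windows. CACGTG was present in windows of Plin2, Lipe and Mgll. These matches describe the letters only, and no binding was measured here.

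Plin4 and Pnpla2 were by far the most abundant of the 9 transcripts. Over the 16 libraries Plin4 had a mean level of 77.9 FPKM (range 40.9 to 111) and Pnpla2 of 71.4 FPKM (range 49.7 to 99.1), above 96.2% and 95.9% of the genes tested. In every group these transcripts overlapped each other, and in no group did they overlap the next gene. The other 7 had group means between 4.62 and 19.8 FPKM. Among them, neighbours in the order of levels overlapped, except that Lipe lay above Plin3 in each HFD-pre library.
The order of the lower 7 differed between the groups, with Plin3, Plin5 and G0s2 each taking several places. Plin5 was the lowest of the 9 in CON-pre (4.62 FPKM), lay below Mgll and above Abhd5 in HFD-pre (13.6 FPKM) and below Lipe and above G0s2 in CON-post (10.5 FPKM), and followed directly after Pnpla2 in HFD-post (19.8 FPKM). G0s2 was the lowest in HFD-pre (7.37 FPKM) and CON-post (7.64 FPKM), and lay between Mgll and Lipe in HFD-post (14.1 FPKM). Plin3 lay between Plin2 and Mgll in CON-pre (10.04 FPKM) and just above G0s2 in HFD-pre (7.37 FPKM), was the highest of the lower 7 in CON-post (12.2 FPKM) and was the lowest of the 9 in HFD-post (10.3 FPKM).

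**Figure D1:**
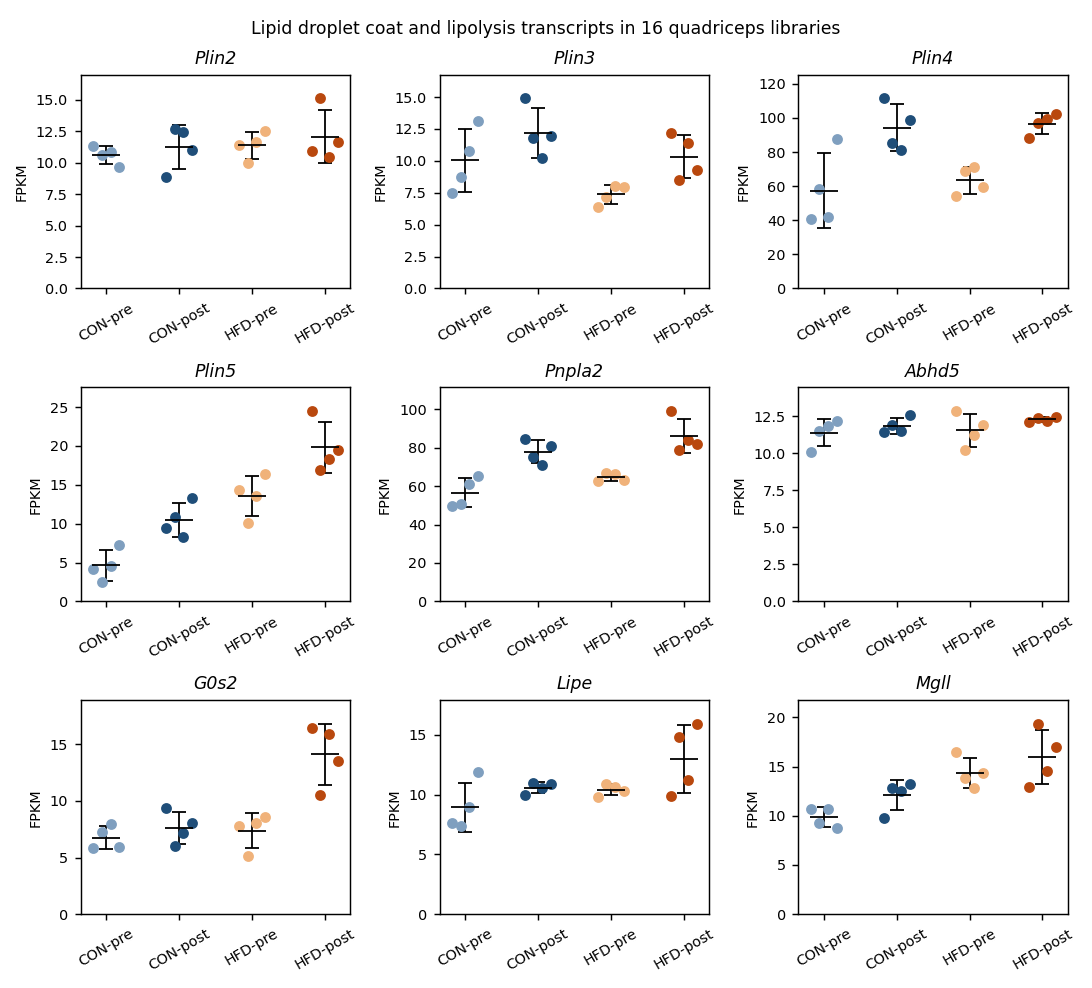
Expression of the 9 transcripts by group, in FPKM on linear axes that start at 0. Each point is 1 library (4 a group, in replicate order from left to right), the wide bar is the group mean and the whiskers are 1 SD. Plin5 climbs from 4.62 FPKM in CON-pre to 19.8 FPKM in HFD-post, G0s2 stands apart in HFD-post only, and Abhd5 stays between 10.1 and 12.8 FPKM.

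The plot of expression by group holds the values that follow. Groups were compared with limma on log2(FPKM + 0.5) in 1 fit of all 4 groups, over the 11256 genes that averaged 0.5 FPKM or more, and a change was called at a Benjamini-Hochberg adjusted p under 0.05. Fold changes are on this log2 scale, which understates the change of low transcripts. In these bulk samples, fewer cells of a type and less RNA per cell cannot be told apart.

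The first question was how HFD altered these transcripts in muscle at rest. Between HFD-pre and CON-pre 1 of the 9 members, Plin5, passed the test, where 0.346% of all genes tested did. Plin5 was 4.13, 2.52, 4.55 and 7.26 FPKM in the 4 CON-pre libraries and 14.4, 10.1, 13.6 and 16.3 FPKM in the 4 HFD-pre libraries. Every HFD-pre library lay above every CON-pre library. The mean level rose from 4.62 ± 1.97 to 13.6 ± 2.61 FPKM (SD, n = 4), a log2 fold change of 1.52 (SE, the standard error, 0.23; limma adjusted p = 0.00588). The call held in 29 of 30 alternative fits, and was lost when only these 2 groups were fitted (adjusted p = 0.0559).
Mgll was the other transcript whose groups did not overlap, so that 2 of 9 members lay wholly higher, against 1.68% of all genes tested. Mgll was 10.7, 9.27, 10.7 and 8.73 FPKM in CON-pre and 16.5, 13.9, 12.8 and 14.3 FPKM in HFD-pre. Its log2 fold change of 0.52 (SE 0.12) did not pass the test (limma adjusted p = 0.108), but did so when libraries were rescaled by the upper quartile (adjusted p = 0.0152), the median of ratios (0.0160) or quantiles (0.0280).
None of the other coats passed the test, and the coats were not tested against each other. Plin4, a perilipin of muscle and fat, was 57.4 ± 21.9 FPKM in CON-pre and 63.3 ± 7.96 FPKM in HFD-pre (SD, n = 4; log2 fold change 0.20, SE 0.18). Without single libraries this log2 fold change ranged from 0.066 to 0.43. Plin3, the ubiquitous coat also known as TIP47, was the only member with a lower mean in HFD-pre, at 7.37 ± 0.757 against 10.04 ± 2.47 FPKM (SD, n = 4). Its log2 fold change of -0.40 (SE 0.16) did not pass (limma adjusted p = 0.474), and the libraries overlapped.
Plin2 (adipophilin), the coat that marks lipid-laden cells of many kinds, was 10.6 ± 0.717 FPKM in CON-pre and 11.4 ± 1.07 FPKM in HFD-pre (SD, n = 4). The 95% interval of its log2 difference ran from -0.16 to 0.35. The median log2 difference of the 9 members was 0.20, with 8 of 9 higher, beside a median of -0.034 over all genes tested, of which 4462 were higher.

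**Figure D2:**
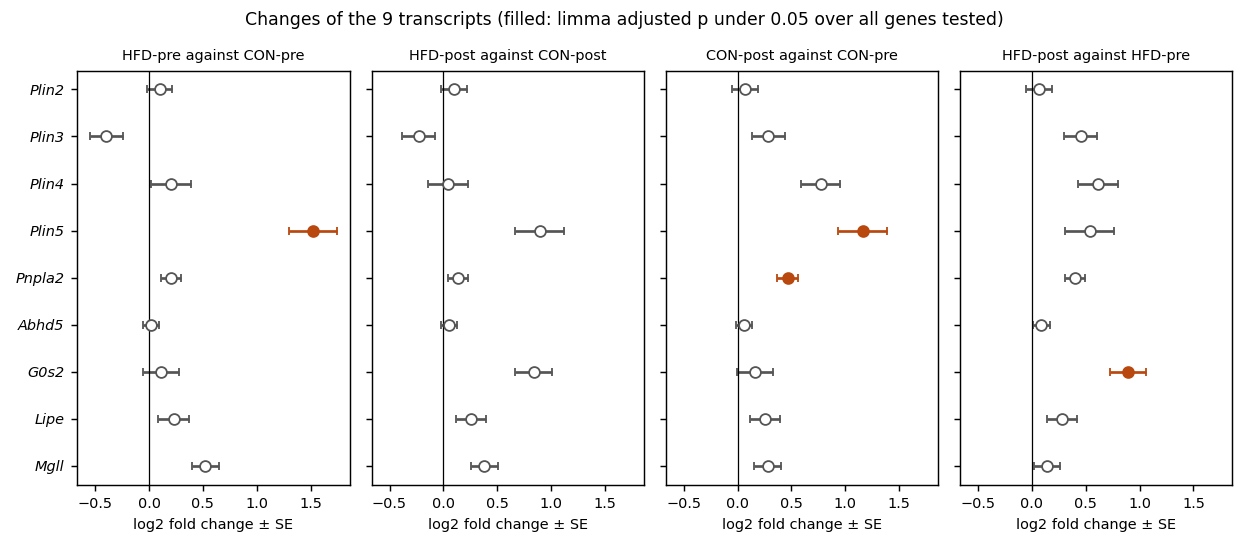
Log2 fold changes of the 9 transcripts (horizontal axes, points) with 1 SE (whiskers) in the 4 comparisons of 2 groups. Filled points mark an adjusted p under 0.05, which are Plin5 for diet before exercise, Plin5 and Pnpla2 for exercise in CON, and G0s2 for exercise in HFD, while diet after exercise has no filled point.

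The next question was how a single bout of exercise altered the same transcripts in mice on each diet. As the plot of log2 fold changes shows, all 9 means were higher after exercise in both diets, with a median log2 difference of 0.28 in CON and 0.40 in HFD. Over all genes tested the medians were -0.0058 and 0.035. Of the 12 adipocyte markers listed further on, 6 had a higher mean after exercise in CON (median -0.022) and 10 in HFD (median 0.39), and 0 passed in either. The comparisons of exercise in CON and of diet before exercise share the CON-pre libraries, and those of exercise in HFD and of diet before exercise share the HFD-pre libraries, so they are not independent.

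In CON mice 2 of the 9 members passed the test after exercise, Plin5 and Pnpla2, where 1.11% of all genes tested did. The same 2 genes were the ones whose CON-post libraries all lay above CON-pre, against 3.29% of all genes tested. Plin5 was 9.45, 10.8, 8.29 and 13.3 FPKM in CON-post, above the highest CON-pre library (7.26 FPKM). Its log2 fold change was 1.16 (SE 0.23, limma adjusted p = 0.0126). The call was lost without CON-post replicate 4 (adjusted p = 0.0512), with no filter on low values (0.0916) and when only these 2 groups were fitted (0.116).
Pnpla2 was 49.7, 50.5, 61.2 and 65.1 FPKM in CON-pre and 84.8, 75.1, 71.0 and 80.9 FPKM in CON-post. The groups did not overlap, and the log2 fold change was 0.46 (SE 0.093, limma adjusted p = 0.0157). The call was lost in 9 of 30 alternative fits (adjusted p 0.0534 to 0.116), among them those without CON-pre replicate 1 (0.0802), CON-pre replicate 2 (0.0694), CON-post replicate 1 (0.0667) or CON-post replicate 4 (0.0544).
Plin4 showed how much 1 library can weigh. It was 40.9, 58.6, 42.1 and 87.9 FPKM in CON-pre and 111, 85.1, 81.2 and 98.9 FPKM in CON-post. CON-pre replicate 4 lay inside the CON-post range and the other 3 lay below it. The log2 fold change was 0.77 (SE 0.18, limma adjusted p = 0.0578), and without CON-pre replicate 4 it was 1.00 (adjusted p = 0.00111). CON-pre replicate 4 also had the highest adipocyte score (0.29) and the highest slow fibre score (0.81) of its group. With the adipocyte score as a covariate the log2 fold change of Plin4 was 0.78 (limma adjusted p = 0.0566), and with the slow fibre score it was 0.76 (0.0412). With weights for the quality of each library it was 0.86 (adjusted p = 0.0211).

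In HFD mice 1 of the 9 members passed the test after exercise, the lipase inhibitor G0s2, where 0.542% of all genes tested did. G0s2 was 7.74, 5.16, 8.02 and 8.57 FPKM in HFD-pre and 16.4, 10.5, 15.9 and 13.5 FPKM in HFD-post. All HFD-post libraries were above all HFD-pre libraries. The mean level rose from 7.37 ± 1.52 to 14.1 ± 2.68 FPKM (SD, n = 4), a log2 fold change of 0.89 (SE 0.17, limma adjusted p = 0.0224).
This call was lost in 10 of 30 alternative fits (adjusted p 0.0507 to 0.120). They included the fits without HFD-pre replicate 1 (0.0686) or 2 (0.0830), without HFD-post replicate 1 (0.0679), 3 (0.0852) or 4 (0.0609), and without HFD-post replicates 2 and 4 together (0.0533), where the log2 fold change was 1.103.
Altogether 5 of the 9 members lay wholly higher in HFD-post than in HFD-pre, namely Plin3, Plin4, Plin5, Pnpla2 and G0s2, against 4.72% of all genes tested. Pnpla2 was 62.5, 66.8, 66.2 and 63.4 FPKM in HFD-pre and 99.1, 79.1, 84.3 and 81.8 FPKM in HFD-post (log2 fold change 0.40, SE 0.093, limma adjusted p = 0.0775). Plin4 was 54.1, 68.8, 71.0 and 59.3 FPKM in HFD-pre and 88.2, 96.8, 99.2 and 102 FPKM in HFD-post (0.61, SE 0.18, limma adjusted p = 0.189). Neither passed for exercise in HFD in the fit of the 4 groups, although both passed without CON-pre replicate 4, which enters this comparison through the shared estimate of the spread (adjusted p = 0.0411 for Pnpla2 and 0.0365 for Plin4). Plin4 also passed when only HFD-pre and HFD-post were fitted (adjusted p = 0.0370), and Pnpla2 with the slow fibre score as a covariate (0.0361).
Plin5 was 24.5, 16.9, 18.3 and 19.5 FPKM in HFD-post. These were the highest Plin5 levels of the study, each above the highest HFD-pre library (16.3 FPKM). The log2 fold change of 0.54 (SE 0.23) did not pass (limma adjusted p = 0.359). Plin3 was 6.39, 7.17, 8.02 and 7.91 FPKM in HFD-pre and 12.2, 8.54, 11.4 and 9.30 FPKM in HFD-post (0.45, SE 0.16, limma adjusted p = 0.266).

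Averaged over both diets, 4 of the 9 members rose after exercise, where 3.86% of all genes tested passed in either direction. They were Pnpla2 (log2 fold change 0.43, SE 0.066, limma adjusted p = 9.80e-04), Plin5 (0.85, SE 0.16, adjusted p = 0.00617), Plin4 (0.69, SE 0.13, adjusted p = 0.00641) and G0s2 (0.53, SE 0.12, adjusted p = 0.0203). The mean for G0s2 joins a log2 difference of 0.89 in HFD with 0.16 in CON (SE 0.17, limma adjusted p = 0.781), where its libraries overlapped. The first 3 of these calls held in all 29 alternative fits of this contrast, while that of G0s2 was lost with no filter on low values (0.0874) and without CON-pre replicate 1 (0.0526). Averaged over exercise, 2 of the 9 rose with HFD, where 0.959% of all genes tested passed. They were Plin5 (1.21, SE 0.16, adjusted p = 6.58e-04) and Mgll (0.45, SE 0.087, adjusted p = 0.0163). The Plin5 call held in all 29 alternative fits. The Mgll call was lost with no filter on low values (0.0786) and without HFD-post replicates 2 and 4 together (0.0924).

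The third question was whether the diets still differed after exercise. Between HFD-post and CON-post 0 of the 9 members had a limma adjusted p under 0.05, where 0.151% of all genes tested did, and 3 (Plin5, Mgll and G0s2, all higher in HFD-post) had an unadjusted p under 0.05, which 3.12% of all genes tested reached in that direction. Plin5 and G0s2 lay wholly higher in HFD-post, which was the case for 1.88% of all genes tested. G0s2 was 9.35, 6.01, 7.15 and 8.04 FPKM in CON-post, below the lowest HFD-post library (10.5 FPKM). Its log2 difference was 0.84 (SE 0.17, limma adjusted p = 0.0665). In 5 of 30 alternative fits it passed, among them those without HFD-pre replicate 2 (0.0318) and without HFD-post replicate 2 (0.0348).
Plin5 differed by 0.89 (SE 0.23, limma adjusted p = 0.193), and Mgll by 0.38 (SE 0.12, adjusted p = 0.435). Mgll was 9.81, 12.9, 12.5 and 13.2 FPKM in CON-post and 12.97, 19.3, 14.6 and 17.0 FPKM in HFD-post, and the groups overlapped. The median log2 difference of the 9 was 0.14, with 8 higher and Plin3 lower, beside 0.0038 over all genes tested.

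Whether exercise acted differently in the diets was tested as the interaction. With limma 0 of the 9 members and 0% of all genes tested passed, while 1 member (G0s2) had an unadjusted p under 0.05, which 2.11% of all genes tested (238 genes) reached with a positive and 118 genes with a negative estimate. The exercise response of G0s2 was 0.73 higher in HFD (SE 0.24) and that of Plin5 differed by -0.63 (SE 0.32). For both the limma adjusted p was 0.9999. A different exercise response in HFD was therefore not shown for any of the 9.

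Shares of the coat transcripts gave a second view of the same levels. The sum of Plin2 to Plin5 was 82.6 ± 24.6 FPKM in CON-pre, 95.7 ± 7.35 in HFD-pre, 128 ± 14.6 in CON-post and 139 ± 2.97 FPKM in HFD-post (SD, n = 4). Plin4 made up most of it, between 66.0 and 73.3% as a group mean. Plin5 made up 6.48, 3.14, 6.66 and 6.16% in CON-pre, and between 10.5 and 17.0% in HFD-pre. In CON-post it made up 6.53, 9.01, 7.40 and 9.87%, and in HFD-post 18.03, 12.3, 13.1 and 13.7%.
The HFD libraries lay above the CON libraries on both sides of exercise. The mean share was 14.3 ± 3.10% in HFD-pre against 5.61 ± 1.66% in CON-pre, and 14.3 ± 2.55% in HFD-post against 8.20 ± 1.52% in CON-post (SD, n = 4). Each difference had a two-sided exact permutation p of 0.0286, the smallest that 4 libraries against 4 allow, and an adjusted p of 0.0762 over 8 ratio tests. With exercise the share differed by 2.60 percentage points in CON (exact permutation p = 0.0571) and by 0.012 in HFD (exact permutation p = 1.0). The share is computed from the FPKM given above and is not independent of them.

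**Figure D3:**
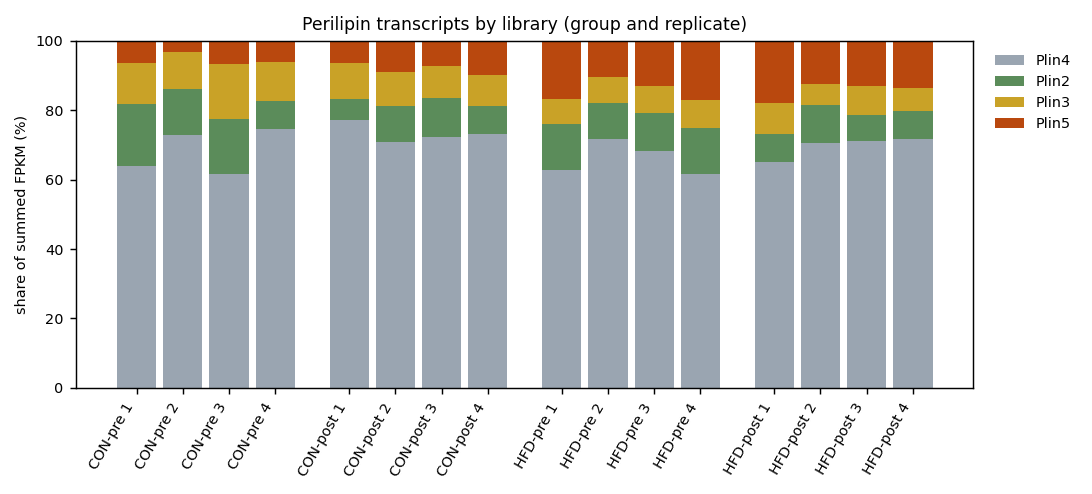
Share of each perilipin in the summed FPKM of Plin2 to Plin5, in percent, with 1 stacked bar for each of the 16 libraries. The Plin5 segment at the top takes 10.5 to 18.03% in the 8 HFD libraries and 3.14 to 9.87% in the 8 CON libraries.

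The balance of lipase to inhibitor was described by the ratio of Pnpla2 to G0s2. The linear ratio was 8.51, 6.96, 7.73 and 11.01 in CON-pre and 8.08, 12.9, 8.26 and 7.40 in HFD-pre. It was 9.07, 12.5, 9.94 and 10.1 in CON-post and 6.03, 7.50, 5.32 and 6.05 in HFD-post. Each HFD-post library lay below each CON-post library. On the log2 scale the ratio was lower in HFD-post than in CON-post by 0.74 (values 2.63 ± 0.21 against 3.37 ± 0.20, SD, n = 4; exact permutation p = 0.0286, adjusted p = 0.0762 over the 8 ratio tests).
HFD-post overlapped HFD-pre in this ratio (log2 difference -0.53, exact permutation p = 0.0571). CON-post and CON-pre differed by 0.29 (exact permutation p = 0.171), and HFD-pre and CON-pre by 0.086 (exact permutation p = 0.629).
The co-activator Abhd5 was the steadiest of the 9. Its group means were 11.4 ± 0.931, 11.5 ± 1.12, 11.8 ± 0.518 and 12.3 ± 0.168 FPKM (SD, n = 4) in the order CON-pre, HFD-pre, then CON-post, HFD-post. The widest 95% limits of its log2 difference in the 4 comparisons of 2 groups were -0.14 and 0.25. The linear ratio of Abhd5 to G0s2 was 1.71 ± 0.245 in CON-pre, 1.61 ± 0.276 in HFD-pre, 1.59 ± 0.309 in CON-post and 0.900 ± 0.199 in HFD-post (SD, n = 4).

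Lipe passed in none of the 7 contrasts when all libraries were fitted, although without CON-pre replicate 4 it passed for the mean of the exercise differences (log2 difference 0.33, limma adjusted p = 0.0393). It was 7.66, 7.39, 8.94 and 11.9 FPKM in CON-pre, 9.84, 10.9, 10.7 and 10.3 FPKM in HFD-pre, and 9.94, 10.98, 10.6 and 10.9 FPKM in CON-post. In HFD-post it was 9.92, 14.8, 11.3 and 15.9 FPKM, so that replicates 2 and 4 lay above the other 14 libraries and replicates 1 and 3 within their range. The log2 difference was 0.28 (SE 0.14, limma adjusted p = 0.465) for exercise in HFD, and the log2 differences of the other 3 comparisons of 2 groups lay between 0.23 and 0.26. For exercise in HFD it was 0.18 without HFD-post replicate 4, 0.092 with the adipocyte score as a covariate and 0.022 without HFD-post replicates 2 and 4 together.
The same libraries stood out in the markers of fat cells. A score was taken as the mean of centred log2 values of 12 adipocyte markers (Adipoq, Lep, Retn, Cfd, Plin1, Cidec, Fabp4, Car3, Aoc3, Pck1, Thrsp and Adrb3). It was -0.41, 0.40, -0.05 and 0.83 in HFD-post, and lay between -0.28 and 0.29 in the other 12 libraries. Over the 16 libraries Lipe followed this score with a Pearson r of 0.70 (permutation p = 0.0030, adjusted p = 0.027 over the 9 members) and a Spearman rho of 0.62 (permutation p = 0.0122, adjusted p = 0.11). Without HFD-post replicates 2 and 4, the libraries farthest from the median score, r was 0.24, so the relation rests on them. After the group means had been removed r was 0.80. For the other 8 members r lay between -0.07 and 0.37 over the 16 libraries, with an adjusted p of at least 0.367. After removal of the group means their r lay between -0.48 (G0s2) and 0.53 (Mgll), and without HFD-post replicates 2 and 4 between -0.49 (G0s2) and 0.14 (Abhd5). G0s2 (16.4 FPKM) and Plin5 (24.5 FPKM) were highest in HFD-post replicate 1. Of the 16 libraries this one had the lowest adipocyte (-0.41), macrophage (-0.65) and myofibre (-0.15) scores and the highest slow fibre score (0.89).

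**Figure D4:**
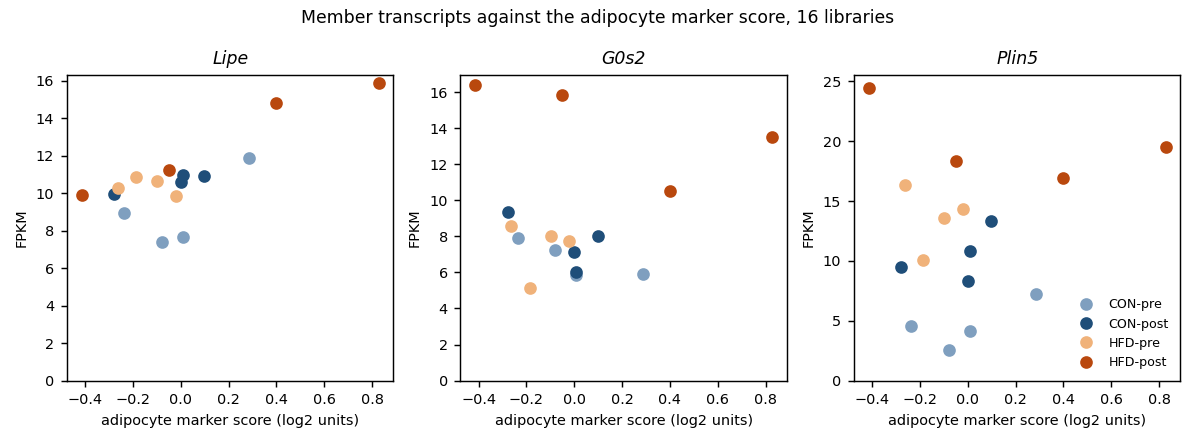
FPKM of Lipe, G0s2 and Plin5 (vertical axes, from 0) against the adipocyte marker score (horizontal axes, mean of centred log2 values), with 1 point for each of the 16 libraries, coloured by group. The 2 points at scores of 0.40 and 0.83 are HFD-post replicates 2 and 4, which hold the highest Lipe levels, while the highest G0s2 and Plin5 levels sit at the lowest score of -0.41.

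As the plot against the adipocyte score shows, markers of cells other than fibres differed between libraries. All 12 adipocyte markers were detected in every group, and their summed level ran from 736 to 975 FPKM in CON-pre, 787 to 932 in HFD-pre, 719 to 1009 in CON-post and 654 to 1259 FPKM in HFD-post, much of it from Car3, which muscle also makes. With diet, before and after exercise, 1 passed higher (Lep) and 1 lower (Cfd). In the interaction 12 of 12 had a positive estimate (median 0.42) and 0 passed. The 10 macrophage markers summed to between 77.9 and 234 FPKM and the 5 endothelial markers to between 43.2 and 64.8 FPKM. None of the macrophage markers passed in any comparison, although 10 of 10 had a lower estimate for the mean of the diet differences (median -0.25). Of the endothelial markers 1 (Pecam1) rose with exercise in HFD (log2 fold change 0.39, limma adjusted p = 0.0347). In CON 0 passed, although Pecam1 lay wholly higher in CON-post (19.6 to 21.8 FPKM) than in CON-pre (14.9 to 17.8 FPKM). For the mean exercise effect 1 endothelial marker passed as higher. The 10 myofibre markers summed to between 57440 and 80460 FPKM, the highest sum of the 6 marker lists, and 8 of 10 had a lower mean in HFD-pre than in CON-pre (median log2 difference -0.20, 0 passed). With exercise in CON 1 of them, Myl1, fell by 0.39 on the log2 scale (limma adjusted p = 0.0397). For the mean exercise effect 1 myofibre marker passed as lower. The 9 slow fibre markers summed to between 200 and 780 FPKM with a wide spread inside every group, and 0 passed in any comparison. With HFD before exercise 8 of 9 had a lower mean (median log2 difference -0.50), and with exercise in HFD 9 of 9 had a higher mean (median 0.25). With the adipocyte score or the slow fibre score as a covariate every call of a member was kept. Before exercise 6 of the 12 adipocyte markers were higher with HFD and 6 lower (log2 differences from -1.97 to 2.34). The adipocyte score is therefore no plain measure of fat cells across diets. With the adipocyte score G0s2 also passed for diet after exercise (limma adjusted p = 0.0281) and for the mean of the diet differences (0.0429). With the slow fibre score it passed for both as well (0.0190 and 0.0151). The slow fibre score further added Plin4 for exercise in CON (0.0412), Pnpla2 for exercise in HFD (0.0361) and Plin3 for the mean of the exercise differences (0.0321). The part of the macrophage, endothelial and myofibre markers in the results was not tested.

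Other genes of the droplet and of triacylglycerol turnover were counted in 4 lists. Of 13 genes for triacylglycerol synthesis 11 were tested, and 11 of 11 were higher in HFD-post than in HFD-pre (median log2 difference 0.17, 0 passed). In the same comparison 6671 of the 11256 genes tested were higher (median 0.035), as were 10 of the 12 adipocyte markers (median 0.39). In CON 5 of 11 were higher after exercise (median -0.0016) and 2 passed, where 1.11% of all genes tested did. Averaged over diets 3 rose with exercise, where 3.86% of all genes tested passed. These were Dgat2, which adds the last fatty acid (log2 fold change 0.91, SE 0.16, limma adjusted p = 0.00288), Agpat9, an acyltransferase of the first step now called Gpat3 (0.60, SE 0.090, adjusted p = 9.11e-04), and Lpin1, the phosphatidate phosphatase lipin 1 (0.37, SE 0.058, adjusted p = 0.00141).
Dgat2 was 8.61, 8.72, 12.3 and 15.9 FPKM in CON-pre, 16.6, 10.8, 12.7 and 17.1 in HFD-pre, 24.3, 13.7, 18.7 and 26.5 in CON-post, and 35.7, 28.3, 23.1 and 27.5 FPKM in HFD-post. HFD-post lay wholly above HFD-pre, and the CON groups overlapped. Within a diet Dgat2 did not pass, with a log2 difference of 0.84 in CON (limma adjusted p = 0.0881) and 0.99 in HFD (0.0664). It did without CON-pre replicate 4 (0.0261 and 0.0362) and without CON-post replicate 2 (0.0266 and 0.0349). Weights for the quality of each library (0.0462 and 0.0459) and the slow fibre score as a covariate (0.0386 and 0.0434) also brought it under the threshold. When only the HFD groups were fitted it passed as well (0.0494). Its log2 difference with diet before exercise was 0.34 (limma adjusted p = 0.759). In CON the genes that passed were Agpat9, which rose from 1.43 ± 0.279 to 2.70 ± 0.358 FPKM (SD, n = 4; log2 fold change 0.74, adjusted p = 0.00585), and Lpin1, which rose from 78.1 ± 1.83 to 111 ± 13.2 FPKM (SD, n = 4; 0.50, adjusted p = 0.00344). In HFD neither passed, with a log2 difference of 0.46 for Agpat9 (limma adjusted p = 0.147) and 0.23 for Lpin1 (0.276), whose libraries overlapped. HFD-post lay wholly below CON-post for Lpin1 (log2 difference -0.32, limma adjusted p = 0.210). In CON both calls held without any single library, and that of Agpat9 was lost when only the CON groups were fitted (adjusted p = 0.0509).

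Of 15 other droplet proteins 13 were tested. Cidea, a fusion protein of droplets best known from brown fat, was higher with HFD when averaged over exercise (0.68, SE 0.13, limma adjusted p = 0.0180). This call was lost with no filter on low values (0.0848) and without HFD-post replicates 2 and 4 together (0.0810), while the log2 difference stayed at 0.68 in both fits. Before exercise its log2 difference was 0.71 (adjusted p = 0.173). Its level was low, at 0.797 ± 0.233 FPKM in CON-pre, 1.64 ± 0.484 in HFD-pre, 0.628 ± 0.257 in CON-post and 1.23 ± 0.0188 FPKM in HFD-post (SD, n = 4). Cidea is also 1 of the 3 brown adipocyte markers, which summed to at most 3.29 FPKM, and the other 2 (Ucp1 and Elovl3) were under the filter on low values. Cidec, its relative in white fat and an adipocyte marker, was 8.18, 24.3, 14.4 and 30.4 FPKM in HFD-post, highest in replicates 2 and 4 (exercise in HFD 0.73, SE 0.29, adjusted p = 0.337; 0.22 in CON). Without replicate 1 of HFD-post its log2 difference for exercise in HFD was 1.07 (adjusted p = 0.0490), without replicate 4 it was 0.46 and without replicates 2 and 4 together 0.088.
Of 8 other lipases, Lpl, which frees fatty acids from circulating lipoproteins, rose with exercise averaged over diets (0.37, SE 0.091, limma adjusted p = 0.0307) and was 118 ± 16.3, 130 ± 8.32, 157 ± 25.4 and 167 ± 28.4 FPKM (SD, n = 4) in CON-pre, in HFD-pre, in CON-post and in HFD-post. This call was lost in 11 of 29 alternative fits (adjusted p 0.0524 to 0.114), of which 7 left out a library (replicates 1 and 2 of CON-pre, 1, 2 and 3 of HFD-pre, and 3 and 4 of CON-post). For diet before exercise the largest difference in this list was that of Ces1f (-0.61, limma adjusted p = 0.564). For exercise in CON it was that of Pnpla3 (-0.44, adjusted p = 0.318), and for exercise in HFD that of Abhd6 (0.35, adjusted p = 0.454).
Of 16 genes of lipolytic signalling 14 were tested. Adrb3, the beta-3 adrenergic receptor and an adipocyte marker, fell with HFD by 0.73 on the log2 scale averaged over exercise (SE 0.15, limma adjusted p = 0.0267), from 1.19 ± 0.203 to 0.428 ± 0.182 FPKM (SD, n = 4) before exercise, where the log2 difference was -0.88 (adjusted p = 0.127). The call was lost in 9 of 28 alternative fits (adjusted p 0.0508 to 0.114), among them 7 that left out a library (replicates 1 and 4 of CON-pre, 1 and 4 of HFD-pre, 2 and 3 of CON-post, and 1 of HFD-post). Pde4d, a phosphodiesterase that degrades cAMP, differed by 0.46 with exercise in CON (adjusted p = 0.0672). It passed with weights for the quality of each library (0.0304), without CON-pre replicate 4 (0.0369) and without HFD-pre replicate 4 (0.0435). Prkar2b, a regulatory subunit of protein kinase A, differed by 0.63 with exercise in HFD (adjusted p = 0.310). The plot of these lists sets the 9 members beside them.

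**Figure D5:**
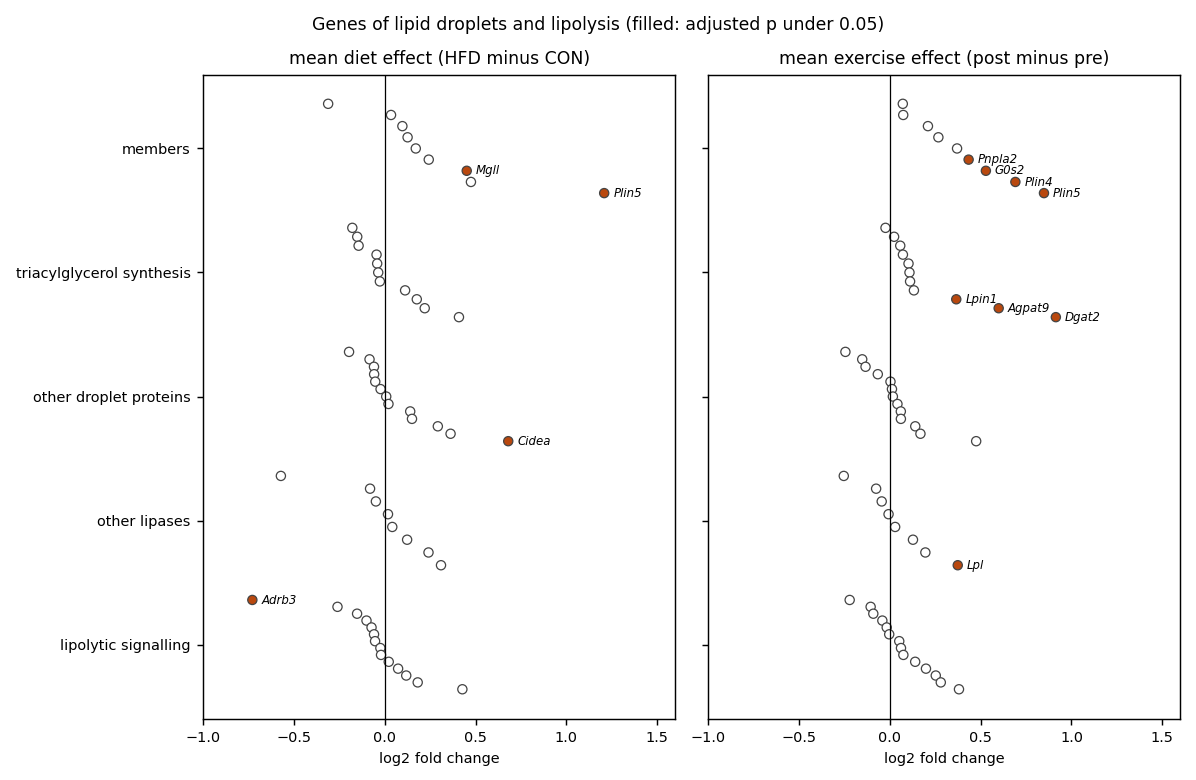
Log2 fold changes (horizontal axes) averaged over exercise for diet (left) and over diet for exercise (right). Each point is 1 tested gene of the 9 members or of the 4 lists, and filled, named points have an adjusted p under 0.05. For exercise the filled points are 4 members, 3 triacylglycerol synthesis genes and Lpl, and for diet they are Plin5, Mgll and Cidea on the right of 0 and Adrb3 on the left.

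Finally, each member was compared with every tested gene over the 16 libraries on log2(FPKM + 0.5). These correlations share the libraries, the 4 groups and their fixed differences, and describe likeness only. Plin5 was most like Slc25a34, a mitochondrial carrier (Pearson r = 0.97, Spearman rho 0.93), Mlycd, malonyl-CoA decarboxylase (r = 0.95, rho 0.92), and Cd36, the fatty acid translocase (r = 0.94, rho 0.94). Plin4 was most like Odf3l2 (r = 0.95), Fkbp5, a co-chaperone of the glucocorticoid receptor (0.95), and Ccrn4l, nocturnin (0.94). Pnpla2 was most like Nudt18 (0.93), Synj2 (0.92) and Lgals4 (0.91). The pattern of G0s2 had no partner as close, and its nearest were Angptl7 (0.84), Fmo1 (0.82) and Rell1 (0.81).
Mgll was most like Phf10 (0.91), catalase (Cat, 0.89) and Flii (0.88), and Lipe like Cd1d1 (0.91), Tle3 (0.86) and Kmt2b (0.85). For Plin2 they were Itgb1 (0.90), Arsa (0.85) and Arf3 (0.85), for Plin3 Map2k3 (0.87) and St3gal5 (0.86), and for Abhd5 Rsph3b (0.83), Ccni (0.82) and Tdp2 (0.82). Among the members themselves Plin4 and Pnpla2 were the most alike (r = 0.83, rho 0.91), followed by Plin5 and Pnpla2 (r = 0.79, rho 0.66) and Plin5 and Mgll (r = 0.74, rho 0.82). Plin2 and Plin4, coats of the same family, had an r of -0.05.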

How the data were processed

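Stranded mRNA libraries of quadriceps were sequenced by the authors, who aligned the reads with TopHat to mm9 and estimated expression with Cufflinks. Versions are not given in the sources used here. The authors deposited 1 table of FPKM for the 16 libraries, scaled for transcript length and library size, so no count model was used. The table itself gives no depth, and the methods state only an approximate number of reads a sample. Library sums ran from 283575 to 329282 FPKM. By group they ran from 305490 to 327559 in CON-pre, 294867 to 303652 in HFD-pre, 298638 to 329282 in CON-post and 283575 to 314764 in HFD-post. All HFD-pre sums thus lay below all CON-pre sums. Of 24487 entries, 27 with names turned into dates were left out (0.0771% of FPKM), and 260 symbols in several entries were summed.

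Groups were taken from the sample labels. The test was limma 3.58.1 (R 4.3.3 with statmod 1.5.0), applied to log2(FPKM + 0.5) of the genes that averaged 0.5 FPKM or more. The trend option was used and the 4 groups shared 1 fit, for 7 contrasts, with Benjamini-Hochberg adjustment over 11256 genes. Ratios were compared by exact two-sided permutation tests and correlations with the marker score by 100000 permutations (scipy 1.17.1 and numpy 2.4.6 in Python 3.11.15, with matplotlib 3.10.9 for plots and pandas 2.3.3 for tables). The limma p-values rest on 1 spread between animals per gene, shared by the 4 groups and drawn toward a trend over all genes. Those of the ratios compare the 4 animals of 1 group with the 4 of another. Those of the correlations shuffle all 16 libraries without regard to group, so they do not measure the spread inside a group. The limma step was run on simulated data in which only diet differences were planted. No exercise or interaction difference was planted, and the ratio, correlation and promoter steps were not tested in this way.

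The 9 members, the 4 pathway lists (triacylglycerol synthesis, other droplet proteins, other lipases, lipolytic signalling) and the 6 marker lists (adipocyte, brown adipocyte, macrophage, endothelial, myofibre, slow fibre) were chosen with earlier results of these data known. Named genes were all members, the 3 genes most like each (1 of which is not reported here), every listed gene called, and otherwise the largest difference of each list in the diet comparison before exercise and in each exercise comparison. Alternatives were 13 other settings and 16 fits leaving out 1 library. A fit without HFD-post replicates 2 and 4 was added after seeing the data. Positions and promoters are from RefSeq GRCm38.p6 by symbol (9 of 9 matched), since of 6 members with a locus listed in the study 6 overlap the gene in that build and 1 in mm9. The methods name mm9, and the build behind the FPKM table was not settled.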

Additional observations from a re-analysis of the deposited data

How the results depend on the processing

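FPKM gives no depth, so counting error cannot be separated from the spread between animals, and with 4 libraries a group the smaller changes could not be resolved. Without each library in turn, the number of members called ranged from 0 to 3 for exercise in CON and from 0 to 3 for exercise in HFD. It ranged from 0 to 1 for diet after exercise and from 3 to 6 for the mean exercise effect (Plin3 and Lipe added without CON-pre replicate 4). For the mean diet effect it ranged from 2 to 3, with G0s2 added without HFD-pre replicate 2 (limma adjusted p = 0.0256) and without HFD-post replicate 2 (0.0379). For diet before exercise it was 1 throughout, and 2 (Plin5 and Mgll) when libraries were rescaled by the upper quartile, by the median of ratios or by quantiles. Fits of the 2 groups in question alone gave 0 members for diet before exercise and 0 for exercise in CON, and for exercise in HFD 1 member, Plin4 (limma adjusted p = 0.0370), in place of G0s2 (0.0729). With no filter on low values, which adds genes to the adjustment, it was 0 for exercise in CON, 0 for exercise in HFD and 1 for the mean diet effect. For exercise in CON each of the 3 scalings left 1 member (Plin5), while array weights and the slow fibre score as a covariate each gave 3 (with Plin4 added). For exercise in HFD the upper quartile and the median of ratios left 0, and the slow fibre score as a covariate gave 2 (Pnpla2 and G0s2). Without HFD-post replicates 2 and 4 together it was 0 for exercise in HFD and 1 for the mean diet effect. For diet after exercise the adipocyte score and the slow fibre score as covariates each gave 1 member (G0s2). The interaction had 0 members in every alternative. Calls over all genes tested also changed between these fits. For exercise in CON they numbered 125 in the main fit, 190 without CON-pre replicate 4 and 117 without CON-post replicate 4. With array weights they numbered 181, and with no filter 75. For exercise in HFD they numbered 61 in the main fit and 6 without HFD-post replicates 2 and 4 together. For the mean exercise effect they numbered 435 in the main fit and 565 without CON-pre replicate 4. The causes of these shifts were not tested.

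The replicate numbers do not pair animals, since the mice differ between groups. Of 24 same-number pairs of libraries 5 had deviations correlated above 0.1 (range -0.22 to 0.21). Pairs with different numbers reached -0.22 (CON-pre replicate 4 with HFD-pre replicate 1) and 0.21 (CON-pre replicate 4 with CON-post replicate 1). Whether libraries of the same number shared a batch is unknown from the labels. With the replicate number as a block, 1 member (G0s2) was called for diet after exercise and the other counts of members were the same. With the block Adrb3 was no longer called for the mean diet effect (limma adjusted p = 0.0699), and Dgat2 was called for exercise in CON (0.0367) and in HFD (0.0332). Over all genes the block gave 116 calls for exercise in CON (125 without it) and 42 for exercise in HFD (61 without it).

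Some differences changed sign. For Plin2 the interaction was 0.023 with the slow fibre score and ranged from -0.11 to 0.059 without single libraries. Its difference for exercise in HFD ranged from -0.039 to 0.13 and for diet after exercise from -0.014 to 0.16. Without HFD-post replicates 2 and 4 it was -0.079, -0.053 and, for the mean exercise effect, -0.0039. For Plin4 diet after exercise was -0.019 with the adipocyte score and ranged from -0.021 to 0.13 without single libraries.
For Lipe the interaction was -0.010, -0.013 and -0.021 under the same 3 scalings, -0.18 with the adipocyte score, and between -0.11 and 0.14 without single libraries. Without HFD-post replicates 2 and 4 it was -0.23, and Lipe for diet after exercise was -0.0034, Mgll for exercise in HFD -0.054 and Pnpla2 in the interaction 0.032. For Abhd5 the interaction was -0.0045, -0.0077 and -0.0066 under the same 3 scalings and between -0.023 and 0.089 without single libraries, and diet before exercise lay between -0.039 and 0.073. The Plin5 share for exercise in HFD lay between -1.25 and 0.916 percentage points, and the log2 ratio of Pnpla2 to G0s2 for diet before exercise between -0.092 and 0.21, without single libraries.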
